A study of Nematostella vectensis with 8 samples.

Results

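Expression of 4 genes of the nematocyst capsule was followed in gastrulae of Nematostella vectensis, the starlet sea anemone, after knockdown of the forkhead transcription factor gene NvfoxE-like. The genes were ncol1 (transcript NV2t012621), ncol3 (NV2t010686), mcol1 (NV2t012623) and Ngal (NV2t005200). They were taken by identifier, through the names in the study's collection of published cnidocyte genes, and made up 4 of the 24520 genes in the tables. Wildtype embryos were injected with shRNA against NvfoxE-like, a combination of 2 hairpins per the study's methods, or with a scramble control RNA. The pools were collected 28 hours post fertilization at 24 °C. Each group held 4 libraries, numbered 1 to 4, and each library came from a pool of about 1000 embryos with an RNA integrity number of at least 8.0. Replicates 1 and 2 of both groups had the library name prefix LA19_2 and replicates 3 and 4 had LA20_3. The labels give the same batch to all 8 libraries and do not explain the prefix.

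Cnidocytes sting prey and predators. Each builds a pressurized capsule inside a vesicle derived from the Golgi and fires a coiled tubule from it. Minicollagens are short collagens, best known from Hydra, with a central triple-helix stretch between cysteine-rich domains that become linked by disulfide bonds as the capsule wall hardens. Nematogalectin, abbreviated Ngal, is known from Hydra as a protein of the tubule with a collagen-like stretch and a galectin-type domain. In Nematostella the promoter of ncol3 drives a reporter used by the study to mark cnidocytes broadly.

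The injected embryos had less NvfoxE-like mRNA in every pair of same-numbered libraries. In CPM (estimated counts relative to library size, after TMM scaling), NvfoxE-like stood at 10.9, 7.10, 11.5 and 15.0 in shRNA replicates 1 to 4 and at 29.7, 15.8, 45.5 and 46.7 in control replicates 1 to 4. The groups did not overlap on this scale (exact two-sided permutation test, p = 0.0286, the smallest that 70 assignments allow), but they overlapped on TPM (exact permutation p = 0.143), the length-scaled abundance that Salmon reports. The shRNA libraries held 36.7%, 44.9%, 25.3% and 32.2% of the CPM of their same-numbered controls, so the residual level was lowest in pair 3 and highest in pair 2. Library totals ranged from 18656270 to 26073612 estimated counts. The first principal component of log2 CPM carried 74.5% of the variance between libraries and split them by prefix, with replicates 2, 1, 4 and 3 in the same order in both groups.

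All 4 capsule genes were measured deeply. Summed over the 8 libraries, ncol3 had 94868 estimated counts, Ngal 60897, mcol1 19482 and ncol1 13460. The counting error of a single library was between 0.776% and 3.33% of the value for these genes, far below the differences between pools described next. Each gene was represented by 1 transcript, of 789 bases for ncol3, 1955 for Ngal, 673 for mcol1 and 961 for ncol1. In 0 of 8 libraries was the count of any of them whole within 0.01, so some reads were divided with other transcripts. No single other gene gave a whole sum with a member in more than 3 libraries, and the sums of any pair of the members or of all 4 were whole in 0 libraries.

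By level, ncol3 stood far above the others. On TPM, ncol3 was at 1412, 1192, 1028 and 1440 in shRNA replicates 1 to 4 and at 1226, 704, 1216 and 1371 in control replicates 1 to 4. Its means were 1268 ± 194 in the shRNA group and 1130 ± 292 in the control group (SD, n = 4 each). The groups overlapped, although control replicate 2 lay below every shRNA library and shRNA replicates 1 and 4 lay above every control. With ranks between 100 and 170 by TPM, ncol3 was among the most abundant mRNAs of the whole embryo.

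The minicollagen gene mcol1 came next in the controls. It was at 279.6, 255, 136 and 250.2 TPM in shRNA replicates 1 to 4. In control replicates 1 to 4 it was at 459, 342, 318 and 471 TPM. Every shRNA library lay below every control library, with means of 230.3 ± 63.9 and 397 ± 78.5 (SD, n = 4 each). Its rank among genes ran from 266 to 378 in the controls and from 432 to 984 in the shRNA libraries.

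Ngal had 215, 223, 101 and 195 TPM in shRNA replicates 1 to 4. Its control libraries held 268, 253, 165 and 278 TPM. Replicate 3 was the lowest library of both groups, and the groups overlapped because control replicate 3 lay below 3 of the 4 shRNA libraries. The means were 184 ± 56.3 and 241 ± 51.8 (SD, n = 4 each).

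The minicollagen gene ncol1 was the least abundant of the 4 in all 8 libraries. It was at 104, 77.2, 73.9 and 120.0 TPM in shRNA replicates 1 to 4. The control libraries held 181, 93.8, 162 and 189 TPM. Control replicate 2 was low enough to fall inside the range of the shRNA libraries, and the means were 93.7 ± 22.0 and 156 ± 43.2 (SD, n = 4 each).

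The order of the levels was ncol3, mcol1, Ngal and ncol1 in all 4 control libraries and in all 4 shRNA libraries. The ranges of ncol3 and mcol1 did not overlap in either group. Those of mcol1 and Ngal were apart in the controls and overlapped in the shRNA libraries. Ngal and ncol1 overlapped in both groups and stood as close as 165 and 162 TPM in control replicate 3. Together the 4 genes took between 0.0816% and 0.133% of the counts of a control library and between 0.0543% and 0.131% of an shRNA library. Within this total, measured on TPM, ncol3 supplied 57.5%, 50.6%, 65.3% and 59.4% in control replicates 1 to 4 and 70.2%, 68.2%, 76.8% and 71.8% in shRNA replicates 1 to 4. The share of mcol1 ran from 17.1% to 24.5% in the controls and from 10.2% to 14.6% in the shRNA libraries, and that of ncol1 from 6.73% to 8.69% and from 4.42% to 5.99%. The share of Ngal overlapped, at 8.87% to 18.2% and 7.55% to 12.8%.

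**Figure D1:**
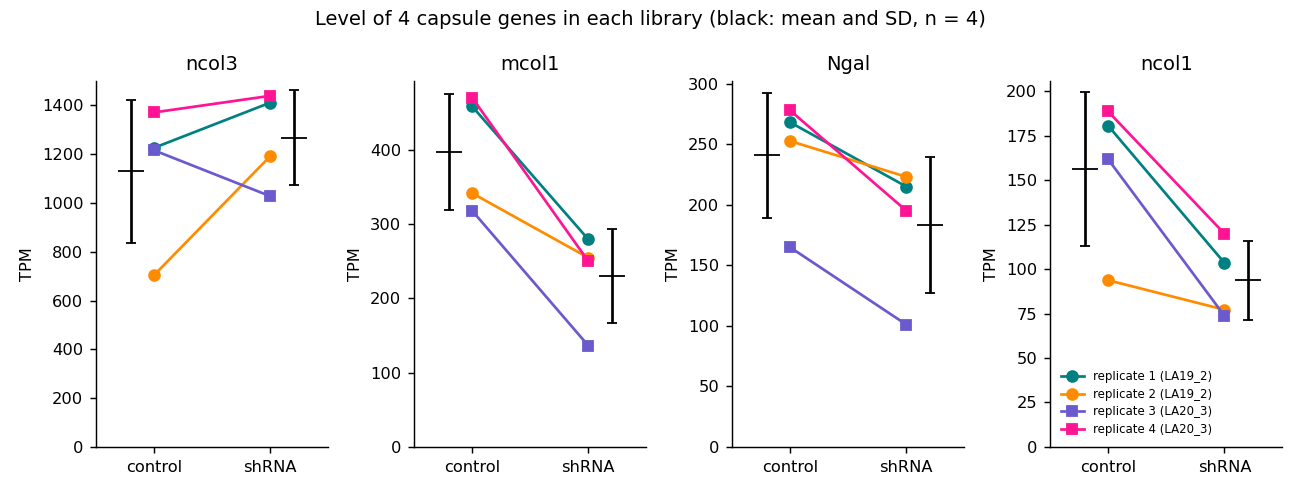
TPM of ncol3, mcol1, Ngal and ncol1 in each of the 8 libraries, with lines joining same-numbered control and shRNA libraries and black marks for the mean and SD of 4 libraries per group. The groups are apart for mcol1 (136 to 279.6 against 318 to 471 TPM), whereas those of ncol3 overlap.

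The comparison of shRNA with control libraries asked whether the capsule genes respond to loss of NvfoxE-like. When same-numbered libraries were compared, ncol1, mcol1 and Ngal were lower in the shRNA library of all 4 pairs and ncol3 was not. Of the 18428 genes with a count in all 8 libraries, 10.2% were lower in all 4 pairs on CPM and 4.49% on TPM, against 3 of the 4 members on both scales. In whole embryos, fewer cells that express a gene and less RNA per cell cannot be told apart.

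For ncol1, CPM was 68.2, 69.4, 31.3 and 55.2 in shRNA replicates 1 to 4 and 122, 97.6, 74.5 and 95.0 in control replicates 1 to 4. These values were 56.0%, 71.1%, 42.0% and 58.1% of the same-numbered controls. The groups did not overlap on CPM (exact permutation p = 0.0286), as was the case for 0.771% of the 18428 genes, but they overlapped on TPM (exact permutation p = 0.0857). The mean of the 4 log2 pair ratios was -0.84 with an SD of 0.31.

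For mcol1, CPM was 102, 127, 32.1 and 63.3 in shRNA replicates 1 to 4 and 175, 196, 82.4 and 131 in control replicates 1 to 4. It had the deepest mean reduction of the 4 genes, with 58.5%, 64.5%, 38.9% and 48.3% of the same-numbered controls. Here the groups overlapped on CPM, since control replicate 3 lay below shRNA replicates 1 and 2 (exact permutation p = 0.114), and did not overlap on TPM (p = 0.0286, exact), where 0.722% of genes were so separated. The mean log2 pair ratio was -0.95 with an SD of 0.32.

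For Ngal, CPM was 359, 510.4, 109 and 229 in shRNA replicates 1 to 4 and 452, 670.2, 191 and 356 in control replicates 1 to 4. The shRNA libraries kept 79.5%, 76.2%, 57.0% and 64.4% of their controls. The spread between pools was larger than the difference within any pair, and the groups overlapped (exact permutation p = 0.429 on CPM and 0.257 on TPM). The mean log2 pair ratio was -0.54 with an SD of 0.22.

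For ncol3, CPM was 682, 785, 319.7 and 484 in shRNA replicates 1 to 4 and 612, 537, 413 and 506 in control replicates 1 to 4. The shRNA libraries held 112%, 146%, 77.4% and 95.6% of their controls, above in pairs 1 and 2 and below in pairs 3 and 4. The mean log2 pair ratio was 0.068 with an SD of 0.39 (exact permutation p = 0.857). The sign of pair 4 turned with the scale, to 0.07 on TPM from -0.07 on CPM. Across genes the median pair ratio on TPM was 0.12 higher on the log2 scale than on CPM.

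Pair 3 had the lowest ratio for each of the 4 members and also the lowest residual NvfoxE-like. Pair 2 had the highest ratio for ncol1, mcol1 and ncol3, and the highest residual NvfoxE-like, whereas for Ngal pair 1 was the highest on CPM and pair 2 on TPM. With 4 pairs this is an ordering and was not tested. Pair 3 was also the lowest on CPM for the regulator genes paxA (-0.58), sox2 (-0.30) and coup-like1 (-0.33), none of them called with the replicate block. For paxA pair 2 was the highest (0.83), whereas for the regulator gene znf845 pair 2 was the lowest (-0.23). The share of all genes with this ordering was not computed. When the signs of the pair ratios were permuted (exact test), ncol1, mcol1 and Ngal each had p = 0.125, the smallest that 4 pairs allow, and ncol3 had p = 0.75.

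**Figure D2:**
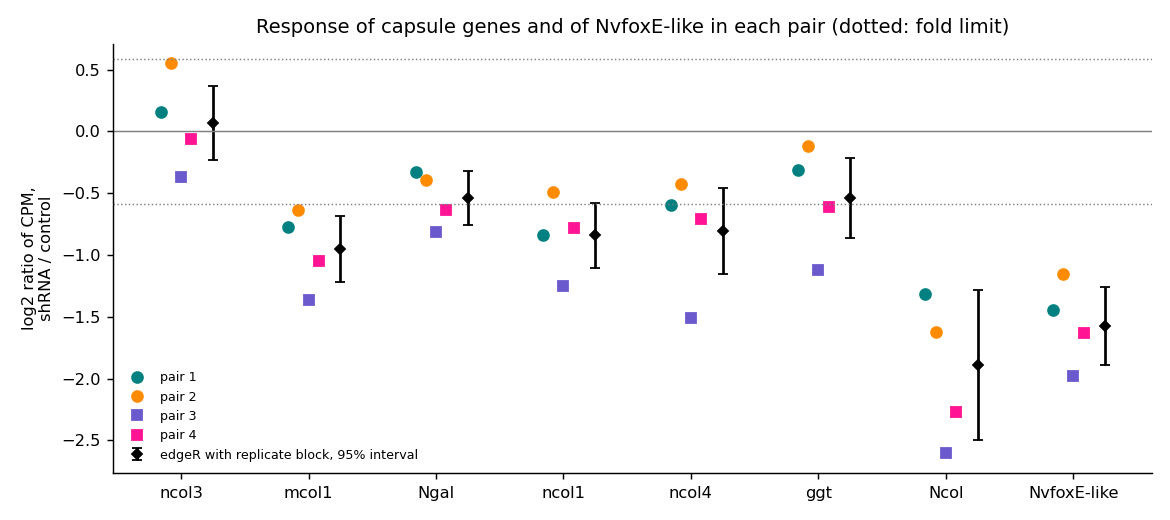
Log2 ratio of CPM, shRNA over same-numbered control, for the 4 capsule genes, the other capsule genes ncol4, ggt and Ncol, and NvfoxE-like, with 1 coloured point per pair, black diamonds for the edgeR estimate with the replicate block and its 95% interval, and dotted lines at the fold limit. All points of ncol1, mcol1 and Ngal lie below 0, those of ncol3 lie on both sides, and pair 3 is the lowest in each gene shown.

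Fitted across all 19002 genes tested, the call depended on whether the replicate number entered the model. In edgeR's quasi-likelihood test without a block, 0 genes passed an adjusted p of 0.05 together with a limit of about 1.5-fold in either direction (0% called lower), and the smallest adjusted p was 0.220. At an unadjusted p of 0.05 with the same fold limit, 231 genes, 1.22%, were lower and 75 higher, and DESeq2 without a block called 48 lower and 8 higher. The estimates of edgeR without a block were -0.80 ± 0.30 for ncol1, -0.85 ± 0.45 for mcol1, -0.47 ± 0.52 for Ngal and 0.14 ± 0.31 for ncol3 (log2 fold change ± SE, n = 4 per group), each with an adjusted p of 1.00.

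With the replicate number as a block, ncol1 and mcol1 fell. The study marked none of the 4 members as dependent on NvfoxE-like. DESeq2 without a block called none of them here. The log2 fold change of mcol1 was -0.95 ± 0.12 (95% interval -1.22 to -0.69, adjusted p = 0.00320 in edgeR's quasi-likelihood test with Benjamini-Hochberg adjustment). That of ncol1 was -0.84 ± 0.12 (-1.10 to -0.58, adjusted p = 0.00609). The same fit called 203 genes lower, 1.07% of those tested, and 40 higher, 0.211%, so 2 of the 4 members were among the lower genes. DESeq2 with the block called 1.42% lower and 0.347% higher, again with mcol1 and ncol1 among the lower ones. NvfoxE-like itself had a log2 fold change of -1.57 ± 0.14 with the block (adjusted p = 0.000539) and -1.63 ± 0.40 without it (adjusted p = 1.00).

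Ngal was estimated at -0.54 ± 0.097 with the block (-0.76 to -0.32). Its adjusted p of 0.0256 in edgeR was under the threshold but its size was inside the fold limit, so it was not called. ncol3 was estimated at 0.068 ± 0.13 (-0.23 to 0.36, adjusted p = 0.895), and its interval spans both directions. The median log2 fold change of the 4 members was -0.69 with the block and -0.63 without it, beside medians over all tested genes of 0.017 and 0.0072.

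The calls of ncol1 and mcol1 did not rest equally on all libraries. mcol1 was called in each fit with the block that left out 1 replicate number (-1.06 to -0.82). ncol1 ran from -0.96 to -0.71 in these fits and lost its call without replicate 1 (-0.84, adjusted p = 0.0611 in edgeR). Ngal passed both limits without replicate 2 (-0.59, adjusted p = 0.0213), and ncol3 was at -0.094 without replicate 2.

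**Figure D3:**
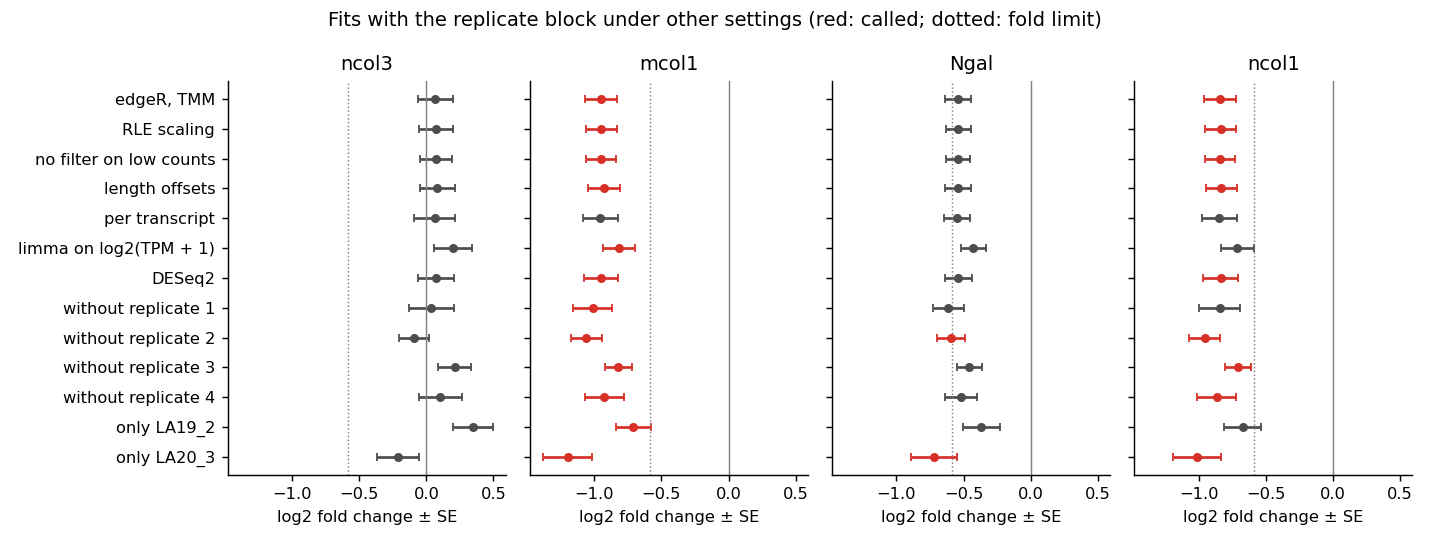
Log2 fold change ± SE of the 4 genes in fits with the replicate block under each processing setting, with red points for fits in which the gene was called and a dotted line at the fold limit. mcol1, Ngal and ncol1 stay below 0 in every setting shown, and ncol3 lies on both sides of 0.

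The ratio between 2 capsule genes within 1 library does not depend on how libraries are scaled. ncol3/ncol1 (both on TPM) was 6.79, 7.51, 7.51 and 7.27 in control replicates 1 to 4, the narrowest of the 6 ratios, with an SD of 0.069 on the log2 scale. It was 13.6, 15.4, 13.9 and 12.0 in shRNA replicates 1 to 4. The geometric means were 13.7 and 7.26, a log2 difference of 0.91 ± 0.072 (SE over 4 pairs), and every shRNA library lay above every control.

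The ratio ncol3/mcol1 was also higher in all shRNA libraries, at 4.68 to 7.54 against 2.06 to 3.82. Its geometric means were 5.66 and 2.80, and the log2 difference of 1.02 ± 0.058 was nearly the same in each pair, at 0.92, 1.18, 0.98 and 0.98. In pair 3, where all 4 genes had their lowest pair ratio, the shift of mcol1 relative to ncol3 was thus like that of pairs 1 and 4. For ncol3/Ngal the geometric means were 7.16 and 4.64, a log2 difference of 0.63 ± 0.11, positive in 4 of 4 pairs, with overlapping groups.

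Among the 3 genes that were lower in every pair, mcol1/Ngal was 1.14 to 1.35 in shRNA libraries and 1.35 to 1.93 in controls, and the groups met without overlapping. The geometric means were 1.27 and 1.66, a log2 difference of -0.39 ± 0.056 and negative in 4 of 4 pairs. On estimated counts in place of TPM the groups of this ratio overlapped (exact permutation p = 0.0571). mcol1/ncol1 differed least, with geometric means of 2.42 and 2.60, a log2 difference of -0.10 ± 0.072, and a negative sign in 3 of 4 pairs. Ngal/ncol1 had geometric means of 1.91 and 1.57 and a log2 difference of 0.29 ± 0.097, positive in 4 of 4 pairs.

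In exact two-sided permutation tests over the 8 libraries, ncol3/ncol1, ncol3/mcol1 and mcol1/Ngal each had p = 0.0286, the smallest possible, and 0.0571 after adjustment over the 6 ratios. None of the 6 therefore passed 0.05 after adjustment. With only these ratios at the smallest possible p, 0.0571 was the lowest adjusted value that they could reach. The adjusted test therefore cannot decide whether these ratios differed between the groups. The others had exact p = 0.114 for ncol3/Ngal, 0.457 for Ngal/ncol1 and 0.714 for mcol1/ncol1, or 0.171, 0.549 and 0.714 adjusted.

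**Figure D4:**
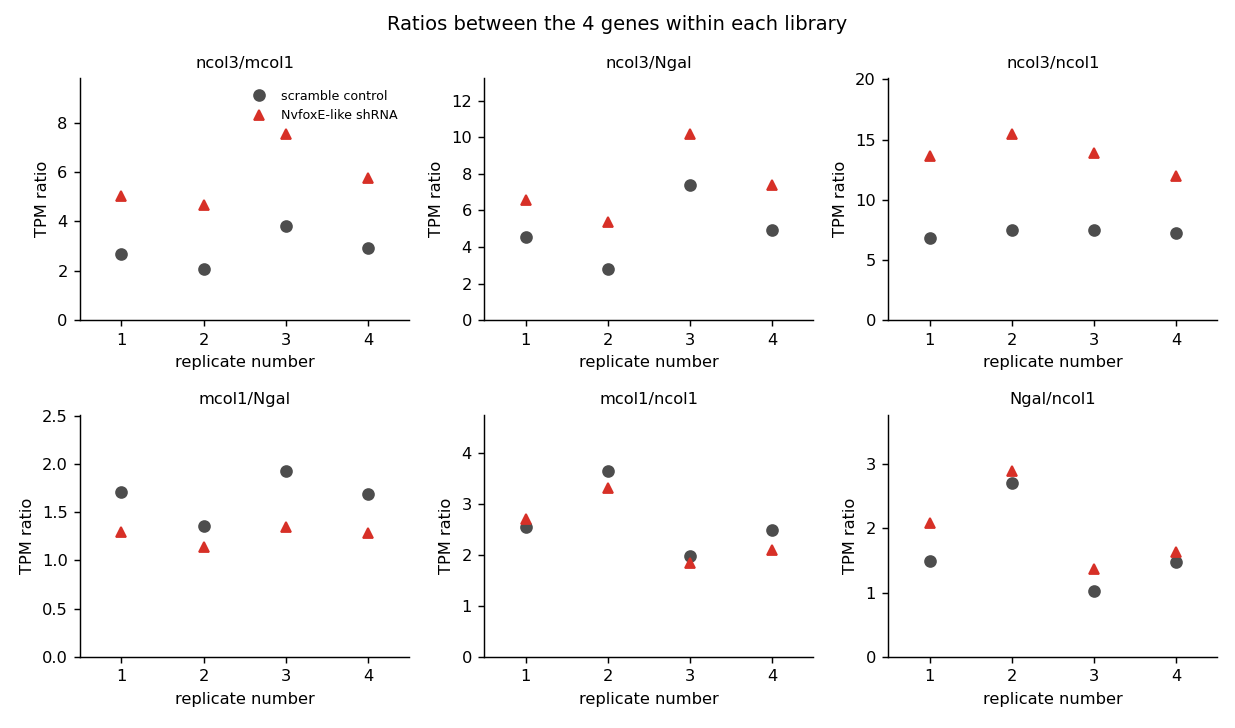
Ratios of TPM between the 4 capsule genes within each library, by replicate number, with circles for scramble control and triangles for NvfoxE-like shRNA on linear axes that start at 0. ncol3/ncol1 is 6.79 to 7.51 in the controls and 12.0 to 15.4 in the shRNA libraries, whereas mcol1/ncol1 differs more between replicate numbers than between groups.

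The pools differed among themselves in the composition of capsule transcripts, and same-numbered pools of both groups did so alike. mcol1/ncol1 was 2.54, 3.65, 1.97 and 2.49 in control replicates 1 to 4 and 2.70, 3.30, 1.85 and 2.08 in shRNA replicates 1 to 4. Ngal/ncol1 was 1.48, 2.70, 1.02 and 1.47 in the controls and 2.08, 2.89, 1.37 and 1.63 in the shRNA libraries. Both ratios were highest in replicate 2, then 1, 4 and 3, in each group, with replicates 1 and 4 almost equal in the controls for both, which is the order of the libraries on the first principal component. ncol3/mcol1 and ncol3/Ngal had the reverse order in both groups. ncol3/ncol1 had no order shared by the groups.

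On CPM, all 4 genes were lower in the LA20_3 libraries than in the LA19_2 libraries, by log2 differences of -1.26 for Ngal, -1.09 for mcol1, -0.61 for ncol3 and -0.55 for ncol1. On TPM these differences were -0.46 and -0.28 for Ngal and mcol1, and turned positive for ncol3, at 0.19, and ncol1, at 0.25. The median over all genes was itself -0.027 on CPM and 0.76 on TPM. Relative to that median the 4 members were lower on both scales, at -1.23 on each for Ngal, -1.06 and -1.05 for mcol1, -0.58 and -0.57 for ncol3, and -0.52 on each for ncol1. The range over the 4 controls on log2 CPM was 0.57 for ncol3, 0.71 for ncol1, 1.25 for mcol1 and 1.81 for Ngal, beside a median of 1.39 over genes. Of genes with a count in all 8 libraries, 12.7% had a smaller control range than ncol3 and 67.3% a smaller one than Ngal.

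**Figure D5:**
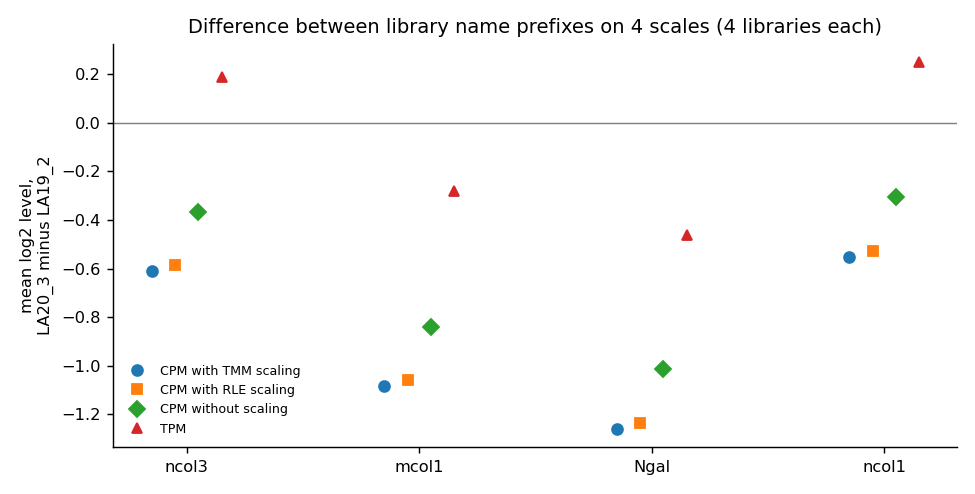
Difference of the mean log2 level, LA20_3 minus LA19_2 libraries (4 each), for the 4 capsule genes on CPM with TMM scaling, with RLE scaling or unscaled, and on TPM. Ngal and mcol1 stay below 0 on each scale, whereas ncol1 and ncol3 are below 0 on the CPM scales and above 0 on TPM, where the median over all genes is 0.76.

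The point estimates of ncol1, mcol1 and Ngal were lower in LA20_3 than in LA19_2, and ncol3 had opposite signs. With the block, the log2 fold changes within LA19_2 and LA20_3 were -0.71 and -1.20 for mcol1, -0.67 and -1.01 for ncol1, -0.37 and -0.72 for Ngal, and 0.35 and -0.21 for ncol3. The test of the difference itself, LA20_3 minus LA19_2, gave -0.57 ± 0.21 for ncol3 and -0.50 ± 0.20 for mcol1 with the block, and -0.36 ± 0.19 for Ngal and -0.35 ± 0.23 for ncol1. None passed after adjustment over all genes (adjusted p = 1.00 for each in edgeR). That test called 5 genes in all, 0.0263%, with the block and 0 without it. Each prefix held only 2 pairs.

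Ncol, ncol4 and ggt were grouped here as the other capsule genes, since the study's collection gives no classes. Of these other capsule genes, 2 of 3 fell with the block, beside 1.07% of all tested genes. Of these, Ncol was marked by the study as dependent on NvfoxE-like from these same libraries. Ncol, a collection gene with low counts, was at 1.93, 2.57, 0.382 and 1.32 CPM in shRNA replicates 1 to 4 and at 4.80, 7.92, 2.32 and 6.38 in control replicates 1 to 4. Its log2 fold change was -1.89 ± 0.27 (adjusted p = 0.00707 in edgeR), and the call was lost without replicate 4 (adjusted p = 0.0763). The minicollagen gene ncol4 was at -0.80 ± 0.16 (adjusted p = 0.0394), and lost its call without replicate 1 (adjusted p = 0.133), without replicate 4 (0.155) and, by the fold limit, without replicate 3 (-0.58). ggt was at -0.54 ± 0.14 (adjusted p = 0.172) and passed both limits without replicate 2 (-0.68, adjusted p = 0.0376).

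Over the whole collection besides the 4 members and NvfoxE-like, 29 genes were tested, of which 10 were called lower, 2 higher and 17 not at all with the block, beside 1.07% lower and 0.211% higher over all tested genes. The median log2 fold change was -0.40. The study marked 10 of the 29 as dependent on NvfoxE-like from these same libraries, so they are not independent evidence of direction, and 8 of the 10 lower genes were marked ones. Of the 19 unmarked genes, 2 were lower and 2 higher, with a median log2 fold change of -0.14. Without the block 0 of the 29 were called in edgeR.

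Likeness was measured as the root mean square difference of log2 CPM centred per gene over the 8 libraries, among the 29 collection genes, as a description. The gene nearest to mcol1 was ncol4, at 0.146, and ncol4 was also nearest to Ngal, at 0.239. The nearest to ncol1 was ggt, at 0.322, and the nearest to ncol3 was coup-like1, a nuclear receptor gene of the cnidocyte regulators, at 0.233. Between members, mcol1 and Ngal were the most alike, at 0.259, and ncol3 and mcol1 the least alike, at 0.587. Over the 4 pair ratios alone, ncol1 was nearest to its fellow member mcol1, at 0.163, and of the collection to ncol4, at 0.183. ncol4 was again the collection gene nearest to mcol1, at 0.231, while Ngal was nearest to ggt, at 0.207, and ncol3 to paxA, at 0.179. Genes measured in the same library share its pool, depth and scaling.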

How the data were processed

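Transcript abundances were made by the authors on Galaxy, with Nvec200 as the reference. Salmon and DESeq2 are the tools listed in the submitters' processing notes. No version, strand or bias setting was found in the sources used here. The sequencing provider had trimmed and filtered the 150 bp paired-end reads. The deposited estimated counts are expected reads per transcript, and the deposited TPM values are length-scaled abundances within each library, over 35819 transcripts. No sequence or genomic position of the members was used here.

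Estimated counts were summed per gene, giving 24520 genes, and rounded to whole numbers. Of the 23769 genes with any count, 19002 passed filterByExpr (minimum count 10). The quasi-likelihood test of edgeR 4.0.16 (R 4.3.3) was run with TMM scaling and no covariate. As in the study, a call needed an adjusted p (Benjamini-Hochberg) up to 0.05 and a change of about 1.5-fold or more. Alternatives were the replicate number as a block, DESeq2 1.42.0, RLE scaling, no filter, length offsets, tests per transcript, limma 3.58.1 on log2(TPM + 1), each prefix alone and each replicate number left out. Ratios were compared by exact permutation.

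The study's methods describe paired experimental and control replicates. After subtraction of group means, shRNA and control replicates 1, 2, 3 and 4 correlated with their own number at r = 0.41, 0.83, 0.83 and 0.69. The remaining correlations were 0.43 to 0.69 within a prefix and negative between prefixes. All 4 values were above 0.1, but so were those between different numbers of the same prefix. shRNA replicate 1 correlated more with control replicate 2 (r = 0.47) than with control replicate 1. These correlations therefore cannot tell the numbers apart within a prefix. By chi-square per degree of freedom over genes, each shRNA library differed least from the control of its own number. Against the own and the other control of its prefix, shRNA replicate 1 had 19.9 and 245, and replicate 2 had 57.6 and 67.7. Replicate 3 had 20.2 and 99.6, and replicate 4 had 26.0 and 48.6. Pairing by number was taken from the numbers shared by both groups and from the study's methods. Blocked values are given beside unblocked ones. The labels do not say whether pools came from separate spawnings, so p-values measure the spread between these pools. In blocked fits of each prefix alone, edgeR took most of its variance estimate from all genes together. No 2 libraries agreed within sampling noise.

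The text names the 4 members, NvfoxE-like, the other capsule genes of the collection, the collection gene most like each member, and NV2.12622 for its neighbouring identifier. The prefix differences of the collection's transcription factors were added after the data were seen. Of the 42 collection genes, 38 carry an identifier. The members and lists were chosen with earlier results of these data known.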

Additional observations from a re-analysis of the deposited data

How the results depend on the processing

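The replicate block decided the calls of edgeR. Without it, edgeR called 0 genes lower and 0 higher. With it, the paired values were -0.95 for mcol1 and -0.84 for ncol1, both called, and 203 genes were lower and 40 higher. DESeq2 called 48 lower and 8 higher without the block, and 66 higher with it. Within the blocked fits, tests per transcript called 19 lower and 0 higher, the LA19_2 libraries alone called 128 lower, and the LA20_3 libraries alone called 321 lower and 164 higher. Leaving out 1 replicate number gave 127 to 237 lower and 13 to 35 higher (132 and 13 without replicate 1, 127 and 23 without replicate 4). The call of mcol1 was lost per transcript (adjusted p = 0.143 in edgeR), and that of ncol1 per transcript (0.183), on TPM in limma (-0.71, adjusted p = 0.0501), in LA19_2 alone (adjusted p = 0.0559) and without replicate 1. Ngal was called in LA20_3 alone (-0.72, adjusted p = 0.00166). The causes were not tested. The estimate of ncol3, which was never called, turned negative without replicate 2 (-0.094 with the block and -0.044 without it) and in LA20_3 alone (-0.21), and without the block it ran from -0.044 to 0.23 when a replicate number was left out. Of 184 values under alternatives, numbers of called genes among them, 154 were classed as unchanged, and these 3 of ncol3 reversed. Many of the unchanged values came from unblocked fits, where edgeR called 0 genes, or from ratio tests with a replicate left out. A call could hardly change there, so the tally does not measure robustness. For a fold change, unchanged meant the same direction and the same call. Ngal per transcript was so classed, although its adjusted p was 0.253 beside 0.0256 in the main fit (both edgeR with the block). A test of the share of the leading transcript could not be made because each member has 1 transcript. With 3 replicates per group the smallest exact permutation p is 0.10, so leaving out a replicate says nothing on the stability of the ratio tests. Counting error was small for all 4 genes, and the spread between pools was the limit.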

Other observations

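The identifier NV2.12622 lies between those of ncol1 and mcol1 and carries no name in the collection. It had 1, 2, 6 and 5.10 estimated counts in shRNA replicates 1 to 4 and 17, 20.7, 11 and 25 in control replicates 1 to 4. The groups did not overlap, also on CPM, where 0.771% of the 18428 genes with counts in all 8 libraries were so separated. Relative to library totals, 14 rounded counts against 74 gave a ratio of 0.190 with an exact 95% interval of 0.0989 to 0.339, which covers counting error only. With the replicate block its log2 fold change was -2.39 ± 0.62 (adjusted p = 0.160 in edgeR), which did not pass. It was lower in 4 of 4 pairs, as were 10.2% of the 18428 genes on CPM.

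The transcription factor genes of the collection were split between the library name prefixes. Of the 15 tested besides NvfoxE-like, 7 were higher and 8 lower in the LA20_3 libraries on log2 CPM, with a median of -0.0022, beside -0.027 over all genes. The ends of this range were znf845, at 1.78, and foxA, at -0.69. Of the other cnidocyte regulators, paxA was at 0.88, sox2 at 0.39 and coup-like1 at -0.38. On TPM all 15 were higher in LA20_3, with a median of 0.79 beside 0.76 over all genes. These values are given with no test.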
